A study of Homo sapiens with 6 samples.

Results

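The 10 genes described here encode tropomyosins, alpha-actinins, calponins and transgelins, and are TPM1, TPM2, TPM3, TPM4, ACTN1, ACTN4, CNN2, CNN3, TAGLN2 and TAGLN3, picked by symbol out of 60676 genes in the tables. The set was chosen by a measured value, since TPM4 ranked 1 by p-value among the 7065 tested genes with a positive log2 fold change. TPM4 is therefore described by its values with no test, and the remaining genes are read in the knowledge that they were picked alongside it.

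All 4 families are actin-binding proteins that set how filaments are coated, cross-linked and bundled. Tropomyosins lie end to end along the filament as coiled-coil dimers and govern which motors and severing factors reach it, alpha-actinins tie neighbouring filaments together, and calponins and transgelins share a calponin homology domain and stabilise bundles. Non-muscle cells carry cytoskeletal forms of each family, while other paralogs belong to skeletal or smooth muscle.

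The RNA came from the human neuroblastoma line SK-N-BE. A scrambled siRNA had been given to the cells of 3 libraries (si-SCR), and a pool of siRNAs directed at CyCoNP, a long noncoding RNA, to those of the other 3 (si-CyCoNP). Both groups had been differentiated for 1.5 days in medium containing 10 μM retinoic acid, so no untreated cells enter any comparison. The comparison addresses what loss of CyCoNP does to transcript levels during neuronal differentiation. The libraries include no other siRNA against CyCoNP and no rescue. Effects of the pool on other RNAs therefore cannot be told apart from loss of CyCoNP. Nothing in the labels says that replicates were separate cultures, so p-values measure the spread between these libraries, which may be technical.

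The libraries held 3762009 to 4799407 counted fragments. LINC02381, the gene of CyCoNP, had 274, 208 and 315 counts in si-SCR, compared with 20, 30 and 12 in si-CyCoNP, which left 7.30% of the control level. Adrenergic neuroblastoma markers were present in every library, with a summed level of 6539 to 7899 CPM (counts scaled to the library total) in si-SCR, compared with 4017 to 4312 CPM in si-CyCoNP, and 8 of the 10 fell, where 14.2% of all genes tested were lower. None of the 10 adrenergic markers was at 0. Mesenchymal neuroblastoma markers summed to 1060 to 1197 CPM in si-SCR, compared with 675 to 717 CPM in si-CyCoNP, and of 12 listed, 9 were tested, 2 rose and 5 fell, where 14.2% of all genes were higher and 14.2% lower, while PRRX1 was at 0 throughout. The 8 markers of muscle cells reached 1 to 6 counts per library in sum, and MYOG, MYF5, MYH8 and CKM were at 0. Both neuroblastoma marker sums moved with the group, and their part in the results that follow was not tested. In bulk RNA, fewer cells of a type and less RNA per cell cannot be told apart.

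Serum response factor (SRF) controls many actin-binding genes through a short DNA element, the CArG box, so the start regions of the 10 genes were searched for it. The windows came from RefSeq (GRCh38.p14) and ran from 250 bases before to 50 bases after each annotated start. The pattern reads the same on either strand. Of 22 windows of the 10 genes, 3 held a match, and these belonged to 3 genes, against 454 of 35116 windows (1.29%) and 438 of 27305 genes (1.60%) among all genes. The matches are shown because their genes took different courses, TPM4 being higher and ACTN1 lower in si-CyCoNP, while CNN2 did not pass the test. Each is written 5′ to 3′ on the strand of its gene with the CArG box in capitals.
TPM4, chr19:16067355-16067384, plus strand: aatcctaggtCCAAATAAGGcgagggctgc
ACTN1, chr14:68977718-68977747, minus strand: acgctcatgtCCAAAAATGGtaacattcat
CNN2, chr19:1026509-1026538, plus strand: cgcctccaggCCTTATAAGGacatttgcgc
The box lay 164 to 173 bases before 1 of 3 annotated starts of TPM4, 162 to 171 bases before 1 of 4 starts of ACTN1 and 80 to 89 bases before the start of CNN2. A match of letters is a description and does not show that a factor binds there.

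Of the 10 genes, 9 reached a mean FPKM (fragments scaled by gene length and by library total) of 1 and were tested, all of them in both groups. TPM4 was higher by the rule that chose the set and is left out of the counts that follow, which cover the other 8. At an adjusted p under 0.05, TPM3 was higher in si-CyCoNP, and 5 were lower (TPM1, ACTN1, CNN3, TAGLN2 and TAGLN3), where 14.2% of all 13966 genes tested were higher and 14.2% lower. ACTN4 and CNN2 did not pass. With a log2 fold change beyond 1 as well, none of the 8 was higher, where 2.28% of all genes were, and TAGLN2 was lower, where 2.98% were. TAGLN2 lay at the edge of that limit, and this call was lost in 7 of the 14 alternative analyses. The FPKM of the groups did not overlap, and were higher, for TPM3, as for 24.2% of all genes. They were lower without overlap for 5 genes (TPM1, ACTN1, ACTN4, CNN3 and TAGLN2), as for 16.1% of all genes. This set holds ACTN4, which did not pass the test, and lacks TAGLN3, whose groups overlapped. These shares are background, and nothing is read from them about the set. The median log2 fold change was -0.27 over the 9 tested genes, TPM4 included, and 0.01 over all genes tested.

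**Figure D1:**
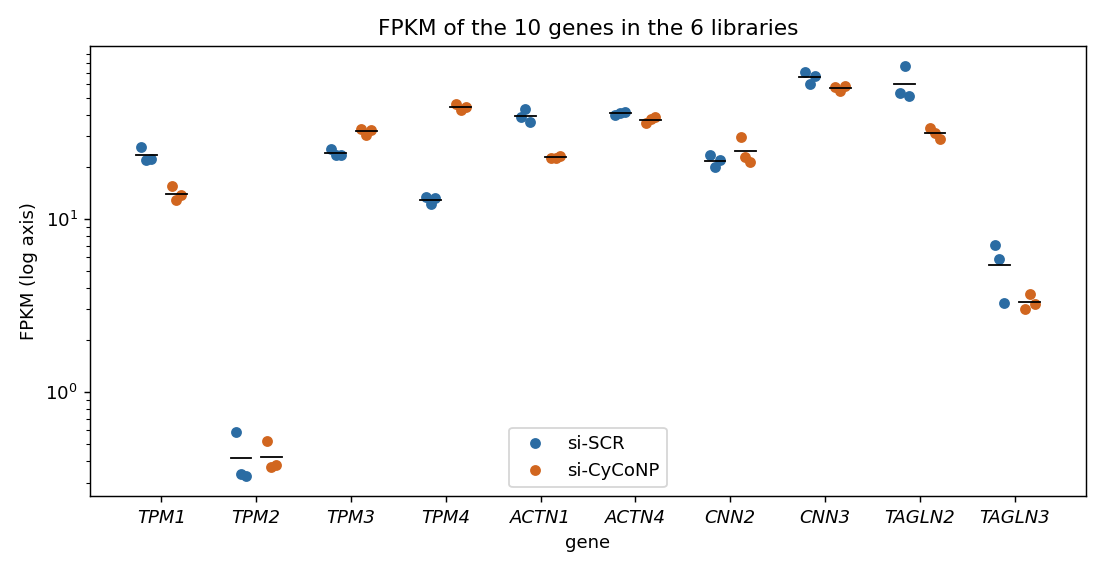
FPKM on a log axis for each of the 10 genes, with 1 point per library in the si-SCR and si-CyCoNP groups and a bar at each group mean. TPM4 went from 12.9 to 44.3 FPKM with no overlap, whereas the points of CNN2, TAGLN3 and TPM2 overlapped between groups.

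Among tropomyosins, TPM4, a gene of cytoskeletal forms (ENSG00000167460, chr19:16067021-16103002, plus strand, GRCh38), stood at 13.3, 12.1 and 13.1 FPKM in si-SCR. In si-CyCoNP it stood at 46.2, 42.7 and 44.1 FPKM. Every si-CyCoNP library lay far above every si-SCR library, and the spread inside each group was small. The means were 12.9 ± 0.639 and 44.3 ± 1.74 FPKM (SD, n = 3 each), and the fitted log2 fold change was 1.72 (SE 0.0811), a 3.28-fold level. The underlying counts were 708, 565 and 778 against 2741, 2245 and 2261. The fold change stayed between 1.68 and 1.78 on the log2 scale under 14 alternative analyses. These reuse the libraries on which TPM4 was chosen, so the narrow range and the small spread are a description. A gene on the opposite strand that overlaps TPM4 exons, ENSG00000279198, had 4 to 19 counts per library.

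TPM3, whose products include cytoskeletal tropomyosins of most cell types and a slow muscle form (ENSG00000143549, chr1:154155308-154194648, minus strand), had 25.3, 23.4 and 23.4 FPKM in si-SCR, compared with 33.1, 30.6 and 32.6 FPKM in si-CyCoNP. All 3 si-CyCoNP libraries were above all 3 si-SCR libraries. TPM3 rose to 1.27-fold of the control level (log2 fold change 0.35, SE 0.0786, edgeR adjusted p = 0.00119), and it passed the threshold in each of the 14 alternatives. The tables also list TPM3P9, named as a TPM3 pseudogene, with 24, 23 and 19 counts in si-SCR, compared with 50, 49 and 36 in si-CyCoNP. Fragments that matched several places were dropped in counting, so a gene and its near copies are less certain than others. Of 28 pseudogene rows of the 10 genes, 19 were at 0 in every library, and no row but TPM3P9 exceeded 17 counts summed over the 6 libraries.

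TPM1, which encodes high molecular weight muscle tropomyosin and several cytoskeletal forms (ENSG00000140416, chr15:63042620-63071915, plus strand), moved the other way. It had 26.1, 21.8 and 22.1 FPKM in si-SCR, compared with 15.4, 12.8 and 13.7 FPKM in si-CyCoNP, with no overlap. TPM1 fell to 57.2% of the control level (log2 fold change -0.81, SE 0.0925, edgeR adjusted p = 1.37e-07). Its value lay between -0.89 and -0.70 in the alternatives and passed in all 14. The antisense gene TPM1-AS had 0 to 5 counts per library. TPM2, best known from slow skeletal and smooth muscle (ENSG00000198467, chr9:35681992-35690056, minus strand), was barely present, with 8, 4 and 5 counts in si-SCR, compared with 8, 5 and 5 in si-CyCoNP. Its means of 0.416 ± 0.147 and 0.424 ± 0.0864 FPKM (SD, n = 3 each) were below the expression filter, so it was not tested.

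**Figure D2:**
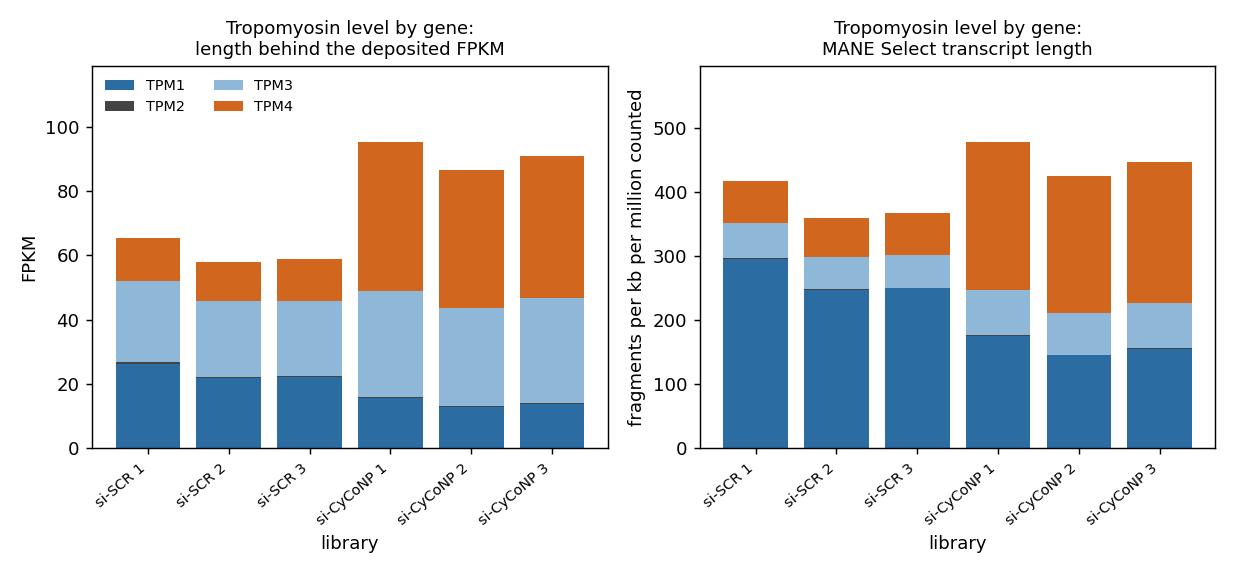
Level of the 4 tropomyosin genes stacked in 1 bar per library, with the length behind the deposited FPKM on the left and the length of the MANE Select transcript on the right. The TPM4 segment was 21.3% of the bar in si-SCR, compared with 48.8% in si-CyCoNP, with the first length, and 16.9% and 49.3% with the second.

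The make-up of the tropomyosin pool differed between groups. With the deposited FPKM, TPM4 supplied 20.4%, 21.0% and 22.3% of the summed tropomyosin level in si-SCR, compared with 48.5%, 49.4% and 48.5% in si-CyCoNP. TPM1 supplied 38.4% ± 1.36 in si-SCR, compared with 15.4% ± 0.745 in si-CyCoNP (SD, n = 3 each). The 4 genes summed to 60.6 ± 4.04 FPKM in si-SCR, compared with 90.8 ± 4.39 FPKM in si-CyCoNP. These values include TPM4, on which the set was chosen, and are a description.

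Levels between genes depend on the length that counts are divided by. Counts and deposited FPKM together give lengths of 13765 bases for TPM1, 15156 for TPM3 and 12375 for TPM4, close to the joined length of all annotated exons, whereas the MANE Select transcripts, 1 representative per gene, have 1217, 7064 and 2474 bases. With the MANE Select length, an alternative added after the data had been seen, TPM1 supplied 69.2% ± 1.32 of the pool in si-SCR, compared with 35.1% ± 1.28 in si-CyCoNP, and TPM4 supplied 16.9% ± 0.987 and 49.3% ± 0.983 (SD, n = 3 each). The TPM3 share went from 39.7% to 35.4% with the first length and from 13.6% to 15.3% with the second, so its direction depended on that choice. TPM4 was the largest share in si-CyCoNP with either length.

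Among alpha-actinins, ACTN1, which cross-links filaments in stress fibres and at adhesions (ENSG00000072110, chr14:68874128-68979440, minus strand), had 38.9, 43.2 and 36.4 FPKM in si-SCR. It had 22.6, 22.5 and 23.2 FPKM in si-CyCoNP. The si-CyCoNP libraries lay close together and all below si-SCR. ACTN1 fell to 55.1% of the control level (log2 fold change -0.86, SE 0.0837, edgeR adjusted p = 9.12e-09), and it passed in all 14 alternatives. ACTN4, a non-muscle alpha-actinin found in the cytoplasm and the nucleus (ENSG00000130402, chr19:38647649-38731589, plus strand), had 39.9, 40.9 and 41.8 FPKM in si-SCR against 35.7, 38.0 and 38.6 FPKM in si-CyCoNP. The groups did not overlap, but the fitted log2 fold change of -0.19 (SE 0.0792) did not pass (edgeR adjusted p = 0.0715). It passed in 1 of the 14 alternatives, with the replicate number as a block (adjusted p = 0.0271).

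Among calponins, CNN3, an acidic calponin of non-muscle and neural cells (ENSG00000117519, chr1:94896949-94927223, minus strand), had 70.7, 60.3 and 66.7 FPKM in si-SCR, compared with 57.7, 55.0 and 58.7 FPKM in si-CyCoNP. The highest si-CyCoNP library was just below the lowest si-SCR library. CNN3 fell to 82.7% of the control level (log2 fold change -0.27, SE 0.0867, edgeR adjusted p = 0.0177). This call was lost in 5 of the 14 alternatives, among them without si-SCR replicate 1 (adjusted p = 0.103) and without si-CyCoNP replicate 2 (adjusted p = 0.0884). CNN2, a calponin of smooth muscle and non-muscle cells (ENSG00000064666, chr19:1026586-1039068, plus strand), had 23.3, 20.0 and 21.9 FPKM in si-SCR, compared with 29.7, 22.9 and 21.2 FPKM in si-CyCoNP. The groups overlapped, with 1 high si-CyCoNP library. The log2 fold change was 0.11 (SE 0.113, edgeR adjusted p = 0.497), and it was -0.05 without si-CyCoNP replicate 1.

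Among transgelins, TAGLN2, the widely expressed form (ENSG00000158710, chr1:159918107-159925507, minus strand), had 53.3, 76.1 and 51.2 FPKM in si-SCR, compared with 33.7, 31.3 and 28.9 FPKM in si-CyCoNP. The groups did not overlap, and the 2nd si-SCR library was well above the others. TAGLN2 fell to 49.8% of the control level (log2 fold change -1.005, SE 0.12, edgeR adjusted p = 2.74e-07), and to a log2 fold change of -0.80 without si-SCR replicate 2. It passed the adjusted p in all 14 alternatives but stayed below a log2 fold change of -1 in 7 of them. TAGLN3, the neuronal form (ENSG00000144834, chr3:111998739-112013887, plus strand), rested on few fragments, with 52, 38 and 27 counts in si-SCR, compared with 25, 27 and 23 in si-CyCoNP. Its FPKM were 7.06, 5.89 and 3.29 against 3.04, 3.70 and 3.23. The 3rd si-SCR library lay within the si-CyCoNP range. TAGLN3 was at 59.1% of the control level (log2 fold change -0.76, SE 0.288, edgeR adjusted p = 0.0495), a call at the edge of the threshold that was lost in 10 of the 14 alternatives. Without si-SCR replicate 1 the log2 fold change was -0.49.

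**Figure D3:**
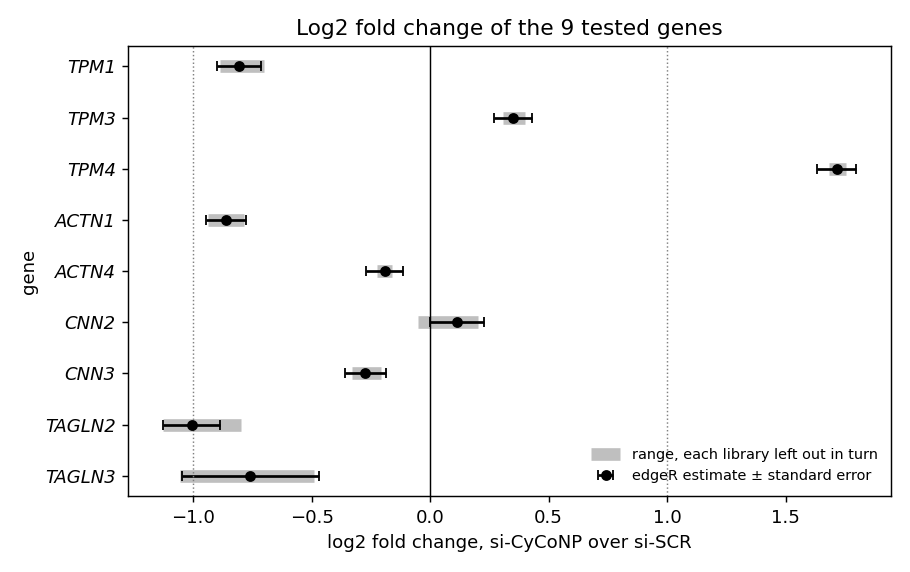
Log2 fold change of si-CyCoNP over si-SCR for the 9 tested genes, with the standard error of the edgeR fit as black bars, the range when each library is left out in turn as grey bars, and dotted lines at -1 and 1. TPM4 at 1.72 and TPM3 at 0.35 lie above 0, and the grey bar of CNN2 crosses 0.

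Paralogs of 1 family were also compared inside each library, where a ratio of FPKM does not depend on how libraries are scaled. TPM4 was left out of these ratios. The ratio of TPM1 to TPM3 was 1.03, 0.931 and 0.945 in si-SCR, compared with 0.467, 0.419 and 0.421 in si-CyCoNP, a log2 difference of -1.16. The ratio of ACTN1 to ACTN4 was 0.976, 1.06 and 0.872 in si-SCR, compared with 0.633, 0.593 and 0.602 in si-CyCoNP, a log2 difference of -0.66. Both ratios were lower in every si-CyCoNP library than in any si-SCR library. The ratio of CNN2 to CNN3 was 0.330, 0.332 and 0.328 in si-SCR, compared with 0.515, 0.418 and 0.361 in si-CyCoNP, a log2 difference of 0.37, and here the groups did not overlap either. The ratio of TPM1 to TPM2 also showed no overlap but rested on the few TPM2 counts.

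For these 4 ratios the exact permutation test gave p = 0.1, the smallest that 3 against 3 libraries allow, or 0.15 after Benjamini-Hochberg adjustment over 6 ratios, so this test could not pass a threshold of 0.05. TAGLN2 to TAGLN3 (exact p = 0.5) and TPM2 to TPM3 (exact p = 0.3) overlapped between groups. The low counts of TAGLN3 and TPM2 limit these comparisons.

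**Figure D4:**
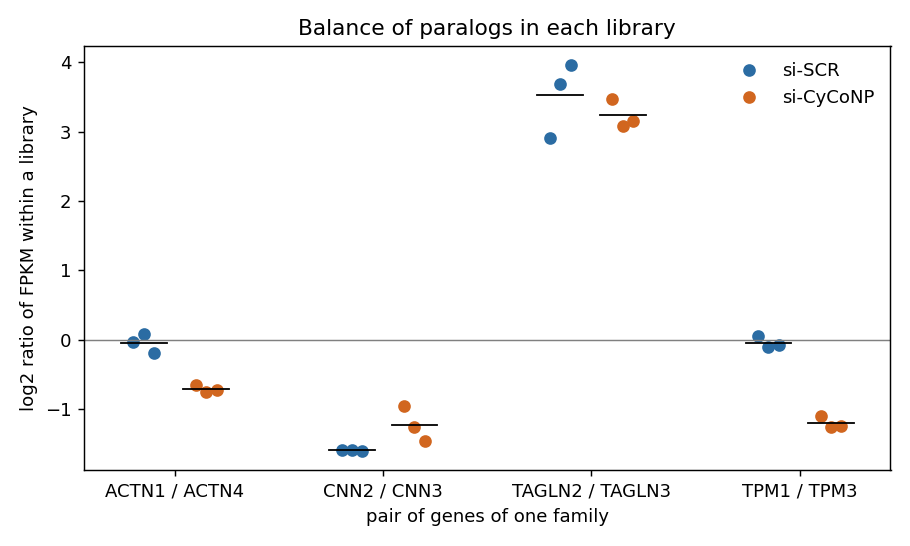
Log2 ratio of the FPKM of paralogs in each library, 1 point per library, for 1 pair each of tropomyosins, alpha-actinins, calponins and transgelins. TPM1 to TPM3, ACTN1 to ACTN4 and CNN2 to CNN3 separate the groups, and TAGLN2 to TAGLN3 overlaps.

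In si-SCR the order of deposited FPKM was led by CNN3 (65.9) and TAGLN2 (60.2), whose libraries overlapped. ACTN4 (40.8) and ACTN1 (39.5) followed and overlapped, then TPM3, TPM1 and CNN2, each overlapping the one before, and TPM4, TAGLN3 and TPM2 were each below the one before. In si-CyCoNP CNN3 stayed first and TPM4 was second, above ACTN4. With the MANE Select length the order in si-SCR was led by TPM1 (264 FPKM), ahead of ACTN1 (113 FPKM), TAGLN2 (109 FPKM) and CNN3 (92.1 FPKM), whose libraries overlapped in turn. In si-CyCoNP TPM4 (222 FPKM) then came first and TPM1 (158 FPKM) second.

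The paralogs of muscle and smooth muscle, ACTN2, ACTN3, CNN1 and TAGLN, were at or near 0, with 3 to 11 counts in sum per library, and none was tested. ACTN3 had no count in any library. The 10 genes thus cover the members of these families that were measurable in SK-N-BE, together with TPM2.

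The other genes of the actin cytoskeleton were taken from lists, and 76 of 114 listed genes were tested. Of these, 20 rose (26.3%) and 18 fell (23.7%), against the 14.2% of all genes tested in each direction, with a median log2 fold change of -0.10. The 14.2% is the background for each list below as well. Listed genes were not matched to all genes by level, and nothing is read from these shares about a list. Beyond a log2 fold change of 1, 5 rose (FLNC, LCP1, UTRN, FHOD1 and ELK4) and 1 fell (FHOD3), where 2.28% of all genes tested were higher and 2.98% lower at that limit. FLNC and ELK4 kept the call in all 14 alternatives, whereas LCP1 lost it in 5, UTRN in 3, and FHOD1 and FHOD3 in 1 each. The libraries whose omission ended such a call were si-SCR replicate 3, si-CyCoNP replicate 1 or si-CyCoNP replicate 2 for LCP1 (log2 fold change 0.92, 0.87 and 0.97), si-SCR replicate 3 for UTRN (0.99) and si-SCR replicate 2 for FHOD1 (0.96). In each list the genes with the highest and lowest change and those beyond 1 are named by rule, and other genes of these lists were named after their values were seen.

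Of the actins, 4 of 6 were tested and ACTG1, cytoplasmic gamma-actin, fell from 619.9 to 501.5 FPKM (log2 fold change -0.38, edgeR adjusted p = 0.00178). ACTB, cytoplasmic beta-actin, stood at 1204 and 1331 FPKM (log2 fold change 0.08, adjusted p = 0.451). The muscle actins ACTA2 and ACTC1 had 3 to 27 and 5 to 21 counts and did not pass, and ACTA1 and ACTG2 had at most 3 counts.

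Tropomodulins cap the pointed end of tropomyosin-coated filaments. Of 16 listed tropomyosin-linked regulators, 4 were tested, and TMOD1 and TMOD2 fell. TMOD1 went from 78.7 ± 10.7 to 44.1 ± 3.63 FPKM (log2 fold change -0.90, edgeR adjusted p = 6.32e-08), and TMOD2, a neuronal form, from 16.6 ± 2.71 to 9.39 ± 0.325 FPKM (SD, n = 3 each). TMOD3, the widely expressed form with the highest value of the list, was at -0.11 and caldesmon (CALD1) at -0.12, and neither passed. The median of the list was -0.50.

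Nonmuscle myosin II pulls on tropomyosin-decorated filaments. Of 9 tested genes of its list, ROCK2, a kinase that promotes myosin II activity (log2 fold change 0.58), and MYH9, a myosin II heavy chain (0.47), rose. MYL12A, a regulatory light chain (-0.30), and PPP1R12A, a myosin phosphatase subunit (-0.29), fell, and the MYL12A call was lost in 4 of the 14 alternatives. Cofilin severs filaments that tropomyosin leaves bare. Of 11 tested genes of its list 3 rose (27.3%) and 4 fell (36.4%), against 14.2% of all genes tested in each direction. The kinase gene LIMK1 rose from 11.9 to 24.6 FPKM, the phosphatase gene SSH1 from 3.85 to 8.02 FPKM, and the kinase gene TESK1 by a log2 fold change of 0.76. DSTN, which encodes destrin, a cofilin relative, fell to 37.7 from 57.7 FPKM, and CFL2, SSH2 and CAP1 also fell.

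Other cross-linkers and bundlers were tested for all 15 listed genes. Of these, 6 rose (40%) and 4 fell (26.7%), against 14.2% of all genes tested in each direction. FLNC, filamin C, best known from muscle, had 362, 248 and 341 counts in si-SCR, compared with 1076, 1085 and 963 in si-CyCoNP (log2 fold change 1.61, SE 0.0979, edgeR adjusted p = 1.96e-12). LCP1, the bundler L-plastin, rose by 1.02 and UTRN, utrophin, by 1.22 on the log2 scale. The adjusted p of UTRN did not pass in 2 of the 14 alternatives. MARCKS, a membrane-bound actin cross-linker, had the lowest value and fell by 0.57 on the log2 scale. The 8 muscle markers stayed at 6 counts or fewer in sum beside this.

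Of 9 tested partners of alpha-actinin, 3 rose (33.3%) and 2 fell (22.2%), against 14.2% of all genes tested in each direction. SYNPO2, synaptopodin 2, an alpha-actinin-binding protein, fell from 82.8 ± 12.6 to 44.9 ± 2.73 FPKM (log2 fold change -0.95, edgeR adjusted p = 1.15e-08), and PDLIM5 fell as well. LPP, a LIM protein of adhesions, had the highest value of 0.53 and lost its call in 3 of 13 alternatives. LPP had 83, 83 and 85 counts in the control libraries against 189, 92 and 115 in si-CyCoNP, and without si-CyCoNP replicate 1 it fell below the expression filter and was not tested. The Arp2/3 complex and formins nucleate branched and straight filaments. Of 16 tested genes of their list, 4 rose (25%) and 2 fell (12.5%), near the 14.2% in each direction for the fall. The formins FHOD1 (log2 fold change 1.05) and FHOD3 (-1.44) marked the opposite ends, DIAPH1, FMNL3 and INF2 also rose, and ARPC5 of the Arp2/3 complex fell.

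The CArG boxes printed above are the kind of element that SRF recognises. Of 8 tested genes of the SRF list, ELK4, an ETS cofactor of SRF, rose by 1.24 (edgeR adjusted p = 2.53e-10) and SRF itself by 0.45 on the log2 scale (edgeR adjusted p = 0.00239), while ELK3 fell by 0.64. MRTFA, the actin-sensing cofactor, was at -0.09 and did not pass (edgeR adjusted p = 0.557). The list thus had 2 higher (25%) and 1 lower (12.5%), against 14.2% of all genes tested in each direction. The genes with a CArG match had different values, TPM4, chosen on its value, at 1.72, CNN2 at 0.11 and ACTN1 at -0.86. Counts per gene do not show which annotated start was used. A part of SRF in these values was not tested.

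Single markers are given because their sums moved with the groups. Among adrenergic markers CHGA, PHOX2A and GATA2 fell, with log2 fold changes of -1.24, -1.13 and -1.06. TH, tyrosine hydroxylase, had the highest value of the list at -0.13 and did not pass. Among mesenchymal markers SNAI2 (-1.27), LGALS1 (-1.27) and FOSL2 (-1.12) fell and IFI16 (1.21) rose. FOSL1, which also counted as risen, had 1, 0 and 3 counts in si-SCR, compared with 5, 14 and 12 in si-CyCoNP, too few in si-SCR for a fold change. Its call was lost in 3 of 13 alternatives.

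The genes whose level followed TPM4 most closely over the 6 libraries were GDF11, a secreted ligand of the TGF-beta family, FAM171A1, SLC7A11, the cystine transporter, NXPE3 and PSMB2, a proteasome subunit. Their Pearson r with TPM4 on log2 CPM lay between 0.998 and 0.999, and 75 tested genes had an r above 0.99. The points share libraries and the group difference, and no p is given. Among the other tested genes of the 4 families, r was 0.953 for TPM3 and 0.340 for CNN2, and it ran from -0.981 for ACTN1 to -0.697 for TAGLN3.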

How the data were processed

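The authors prepared stranded, ribosomal-RNA-depleted libraries, trimmed reads with Trimmomatic 0.39 and Cutadapt 3.2, removed ribosomal reads with Bowtie2 2.4.2 and aligned to GRCh38 with STAR 2.7.7a (versions from the submitters' processing notes). The deposited counts are uniquely mapped fragments per Ensembl gene. The deposited FPKM divide these by exon length and library total, with no correction for composition.

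Here, 13966 of 60676 genes passed a minimum of 1 for the mean FPKM of a group. Their counts were fitted in R 4.3.3 with edgeR 4.0.16 (quasi-likelihood, TMM scaling, no covariate, Benjamini-Hochberg over all genes tested, threshold 0.05). Groups came from sample titles, and all 6 libraries were used. The biological coefficient of variation was 8.57%, and libraries held 3762009 to 4799407 counts. Errors beside means are SDs, and those beside log2 fold changes are standard errors. Alternatives were DESeq2 1.42.0, its size factors, library totals, 2 other filters, limma 3.58.1 on log2(FPKM + 1) and log2(FPKM + 0.1), a replicate block and leaving out each library. Scripts were tested on simulated data. Ratios within libraries were compared by an exact two-sided permutation test over libraries.

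The genes and lists were chosen with earlier results of these data known. Named by rule were all 10 genes, LINC02381, the muscle paralogs and actins, and the 5 genes most correlated with TPM4. In each other list the rule named the called, highest and lowest genes. Other genes of those lists were named after their values were seen. Gene positions are from GENCODE on GRCh38, and promoter windows are from RefSeq. The values of 1 adrenergic marker that this rule names are not reported here, and it enters the list summaries alone.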

Additional observations from a re-analysis of the deposited data

How the results depend on the processing

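TPM1, TPM3, ACTN1 and TAGLN2 kept their direction and passed the adjusted p in all 14 alternatives. The 5 genes that were lower became 3 with library totals alone and with limma on log2(FPKM + 1) or log2(FPKM + 0.1), and 3 to 5 when 1 library was left out. They became 4 with DESeq2 or the default edgeR filter, and 6 with the replicate block, where ACTN4 passed. Genes called lower with a log2 fold change below -1 became 0 with library totals alone, no filter, the replicate block or either limma fit, and 0 to 2 when 1 library was left out. They were 0 without si-SCR replicate 2 or without si-CyCoNP replicate 3, where TAGLN2 was at -0.80 and -0.96. They were 2 without si-SCR replicate 3, namely TAGLN2 at -1.13 and TAGLN3 at -1.05. The cause of these shifts was not tested. The log2 fold change of CNN2 turned to -0.0497 without si-CyCoNP replicate 1 and ranged from -0.0497 to 0.20 when 1 library was left out. The main fit was unpaired, and whether equal replicate numbers mark pairs is not given by the labels. Deviations from the group means correlated at 0.0907, 0.0727 and 0.108 between libraries of equal number. Those of unequal number correlated at -0.0666 to -0.0229, so each library correlated best with its own number. Deviations from a group mean cancel within the group, so a positive correlation with 1 library forces lower ones with the others. All of these correlations were small, and pairing was not tested. Used as a block, the replicate numbers left 0 genes called lower with a log2 fold change below -1. They gave 25 actin cytoskeleton genes that fell in place of 18. The 6 paralog ratios kept their direction throughout. TAGLN3 and TPM2 are limited by their counts. No value was obtained for LPP without si-CyCoNP replicate 1, or for ACTC1 and FOSL1 with the default edgeR filter, which left them out.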
